A study of Oryza sativa with 24 samples.

Results

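RFS (LOC4325200) and P5CS1 (LOC4338979) are rice genes for enzymes that make osmolytes, the small soluble compounds that accumulate in stressed plants. Both were found in the array annotation by symbol or synonym, and they were 2 of the 17905 genes that had a probe set assigned to 1 gene. Each of the 2 genes had 1 such probe set, so no choice between probe sets arose, and both read above the background on 24 of 24 arrays. The background of an array was taken as the highest of its 10 control probe sets for the fungus Magnaporthe, which lay between 63.1 and 137 in intensity.

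The arrays were Affymetrix rice arrays hybridised with RNA of shoots and leaves of Oryza sativa seedlings at the 4-leaf stage. There were 8 accessions, with MH63, ZS97, 9311, Muguanuo and Lixingeng among them beside Youmangzaogeng, Geng87-304 and IRAT109, and each gave 1 array before cold, 1 after 6 h and 1 after 24 h in a chamber held at 4 °C, so that each time point had 8 arrays and the accessions stood as its replicates. The labels name no transgene or agent, and they do not say whether an array held 1 plant or a pool, so the p-values measure only the spread between these arrays. No array of unchilled plants at 6 h or 24 h was analysed here, so cold and time of day, or cold and growth, cannot be told apart. In tissue of mixed cells, fewer cells of a type and less RNA per cell cannot be told apart either.

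Raffinose synthase moves a galactosyl group from galactinol to sucrose and so makes raffinose, the first sugar of its family. Galactinol is made from myo-inositol and UDP-galactose. Raffinose and galactinol are known to build up in leaves of many plants during cold, where they act as protective solutes and as stores of carbon. P5CS1 is a delta-1-pyrroline-5-carboxylate synthase, which reduces glutamate at the step that limits the rate of proline synthesis. Proline is a solute that plants gather under drought, salt and cold.

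Values were intensities on a linear scale, and array medians lay between 41.8 and 46.7. The number of arrays limits the precision. Of 12 listed leaf markers 5 were measured, and 4 of them read above the background on all 24 arrays. The remaining one, RBCS1, a gene of the Rubisco small subunit, read above it on 0. Of 7 listed root markers 4 were measured, of which the silicon channel gene LSI1 read above the background on all 24 arrays and LSI2, IRT1 and PT11 on none. A pair of arrays stood apart, the 24 h array labelled MH63 and the array labelled Lixingeng before cold: their rank correlation (Spearman) over all probe sets was 0.992, the highest of 276 pairs, although they differ in accession and in time. The next pair, 2 arrays of MH63, had 0.981. RFS read 1032 on the MH63 array and 1041 on the Lixingeng array, and P5CS1 read 427.8 and 417.5. Both arrays were kept, and the results of RFS and P5CS1, and the called changes of the other pathway genes at 24 h versus before cold, are also given without them.

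The first question was how the 2 genes behaved over the first 6 h of cold. Neither changed past the threshold of an adjusted p under 0.05 (limma, with the accession as a block and Benjamini-Hochberg adjustment over 57194 probe sets). RFS intensity before cold was 938.3 in 9311, 1285 in IRAT109, 890.1 in ZS97, 1118 in Geng87-304, 1712 in Youmangzaogeng, 1678 in Muguanuo, 1041 in Lixingeng and 1380 in MH63. At 6 h it was 831.6, 1634, 850.9, 1277, 1509, 1420, 905.7 and 1089 in the same order. The ranges overlapped almost wholly, and within accessions RFS was higher only in IRAT109 and Geng87-304 and lower in the other 6. The mean intensity was 1255 ± 317 before cold and 1190 ± 315 at 6 h (SD, n = 8). The log2 change was -0.08 ± 0.09 (SE), with a 95% interval of -0.28 to 0.12 and an adjusted p of 0.702 (limma). An interval of that width covers folds from 0.824 to 1.085. Leaving out 1 accession moved the RFS change between -0.14 (without IRAT109) and -0.04 (without MH63), and it was -0.04 with quantile normalization and -0.013 with equal 75th percentiles.

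The log2 changes of P5CS1 varied less between accessions, with an SD of 0.10 against 0.23 for RFS. Before cold it read 374.9 in 9311, 306.4 in IRAT109, 604.0 in ZS97, 314.9 in Geng87-304, 304.4 in Youmangzaogeng, 289.3 in Muguanuo, 417.5 in Lixingeng and 412.3 in MH63. After 6 h the values were 324.9, 318.2, 557.2, 293.9, 284.2, 258.8, 349.1 and 419.6 in the same order. P5CS1 was lower in 6 of 8 accessions, with IRAT109 and MH63 the exceptions, and the ranges overlapped. The log2 change was -0.10 ± 0.05 (SE; 95% interval -0.20 to 0.01), a fold of 0.934, with an adjusted p of 0.279 in limma. When the signs of the 8 changes within accessions were flipped in all ways, this exact two-sided permutation test gave an adjusted p of 0.0469. That adjustment was over the 6 tests of both genes, and the one in limma was over 57194 probe sets. The call thus depends on the test and on the number of tests adjusted for. The P5CS1 change was -0.03 with quantile normalization and -0.035 with equal 75th percentiles, so its size rested on the scaling. At 6 h a change passed in 9.76% of all probe sets, with 2.8% higher and 6.96% lower, so that 28.7% of the calls were higher as deposited, against 45.9% with quantile normalization and 53.6% with equal 75th percentiles. Without the pair of arrays that stood apart the log2 changes were -0.08 for RFS (adjusted p = 0.578, limma) and -0.08 for P5CS1 (adjusted p = 0.33, limma), where 14.4% of probe sets passed, 4.5% higher and 9.93% lower.

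**Figure D1:**
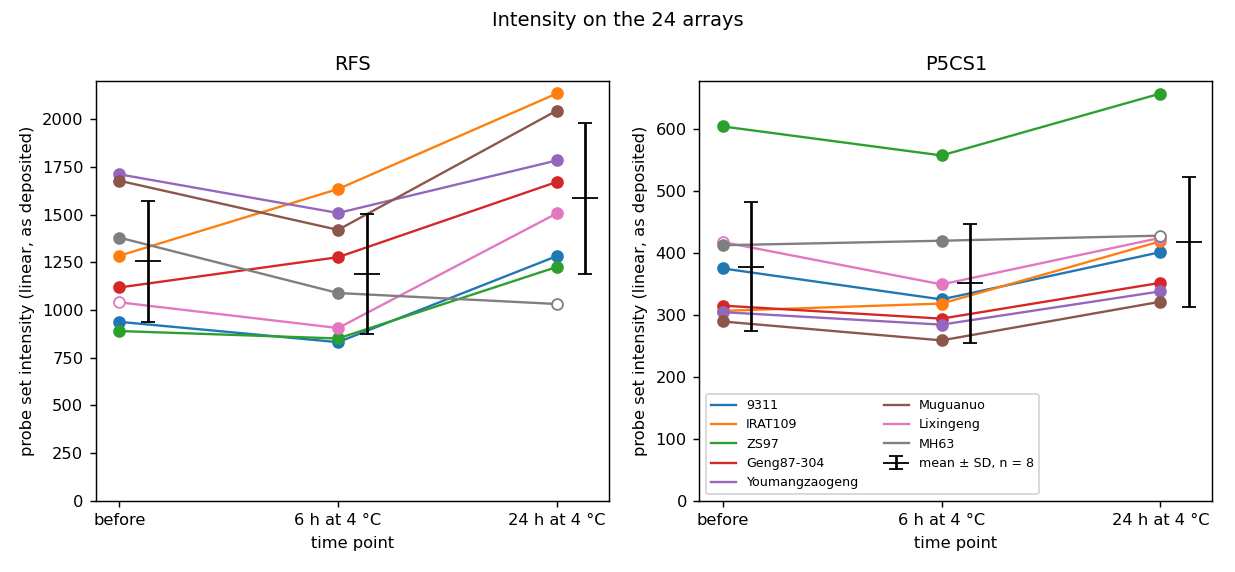
Probe set intensity of RFS (left) and P5CS1 (right) on the linear scale as deposited, against time point, with 1 line per accession, open circles for the 2 arrays that stood apart and black bars for the mean ± SD of 8 arrays. RFS means lie at 1255, 1190 and 1586 and P5CS1 means at 378, 350.7 and 417.5, and the ZS97 line lies above all other P5CS1 lines.

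The second question was what a day of cold had done. RFS was higher at 24 h than before cold. It read 1283 in 9311, 2135 in IRAT109, 1226 in ZS97, 1672 in Geng87-304, 1784 in Youmangzaogeng, 2046 in Muguanuo, 1507 in Lixingeng and 1032 in MH63. The range at 24 h overlapped that before cold, but within accessions the gene was higher in 7 of 8, with MH63, whose 24 h array is 1 of the pair that stood apart, as the exception. The mean was 1586 ± 396 (SD, n = 8). RFS rose 1.25-fold against before cold (log2 change 0.33 ± 0.09, SE; adjusted p = 0.0108, limma), and the change within accessions had an SD of 0.36. IRAT109 had the highest change at 0.72 and Youmangzaogeng, where the level before cold was already the highest of the 8, had 0.06. Without the 2 arrays the rise was 1.33-fold (0.42 ± 0.08; adjusted p = 0.000405), higher in 6 of 6 accessions.

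P5CS1 also rose by 24 h, by a smaller amount. Its intensity was 401.2 in 9311, 418.7 in IRAT109, 657.1 in ZS97, 351.7 in Geng87-304, 337.9 in Youmangzaogeng, 321.2 in Muguanuo, 424.3 in Lixingeng and 427.8 in MH63. Each accession was above its own value before cold, although the 2 groups overlapped because accessions differed more than times did. The rise was 1.101-fold (log2 change 0.14 ± 0.05, SE; adjusted p = 0.0414, limma). The change in 6 accessions lay between 0.05 and 0.15, while IRAT109 had 0.41 and Lixingeng 0.02. This call was lost when any 1 accession other than Lixingeng and MH63 was left out (IRAT109, 9311, Muguanuo, ZS97, Youmangzaogeng and Geng87-304 in turn), with changes of 0.10 to 0.15 and adjusted p of 0.0599 to 0.156. The lowest of these, 0.10, was the value without IRAT109. Without the 2 arrays that stood apart P5CS1 rose 1.13-fold (0.18 ± 0.05; adjusted p = 0.00726), higher in 6 of 6 accessions. Over all probe sets 33.1% changed by 24 h, 13.3% higher and 19.8% lower, and without the 2 arrays 36.8%, 15.9% higher and 20.9% lower, so a call at 24 h was common on these arrays. With equal 75th percentiles the share of higher among the calls was 63.7%, against 40.1% as deposited. The log2 changes under that scaling were 0.43 for RFS and 0.24 for P5CS1.

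Between 6 h and 24 h both genes rose. RFS was higher at 24 h than at 6 h in 7 of 8 accessions, by 0.24 in Youmangzaogeng to 0.71 in Lixingeng, and lower by 0.08 in MH63. The rise was 1.33-fold (log2 change 0.41 ± 0.09, SE; adjusted p = 0.00487, limma). P5CS1 was higher in 8 of 8 accessions. It rose 1.18-fold (0.24 ± 0.05, SE; adjusted p = 0.0027), and 7 of the 8 changes lay between 0.23 and 0.36, with 0.03 in MH63. Without the 2 arrays the rises were 1.41-fold and 1.20-fold (adjusted p = 7.86e-05 and 0.000415, limma), each in 7 of 7 accessions. From 6 h to 24 h 18.1% of all probe sets changed, 7.95% higher and 10.1% lower, and 26.2% did so without the 2 arrays. Higher calls were 43.9% of these as deposited and 55.3% with equal 75th percentiles. The 3 comparisons share arrays, so they are not separate evidence.

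The rise of RFS from 6 h to 24 h was the larger of the 2 in 7 of 8 accessions. The RFS change minus the P5CS1 change averaged 0.17 ± 0.19 on the log2 scale (SD, n = 8; exact two-sided sign-flip test, p = 0.0391, adjusted over 3 comparisons 0.117). Without MH63, whose 24 h array stood apart, it averaged 0.21 in 7 of 7 accessions (exact p = 0.0156, adjusted 0.0469). MH63 was the accession with the opposite sign, and this p is the lowest that the sign-flip test can give for 7 accessions. The difference was 0.19 at 24 h versus before (adjusted exact p = 0.223), or 0.25 over the 6 accessions without the 2 arrays (adjusted exact p = 0.0938), and 0.02 at 6 h versus before (0.867). This comparison was chosen after the values were seen.

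Some measures of RNA quality, and the root marker LSI1, moved with the 24 h time point. For the actin control, the 3′ over 5′ probe set ratio on the log2 scale differed from that before cold by -0.43 ± 0.31 (SD) at 24 h, with each of the 8 accessions lower, and by -0.02 ± 0.23 at 6 h. The same ratio of the EF1a control differed by -0.24 ± 0.27 at 24 h (lower in 7 of 8), and that of the GAPDH control by 0.13 ± 0.25 (higher in 6 of 8), so the controls did not all move one way. The 75th percentile of intensity also differed from that before cold, by -5.63 ± 2.37 at 6 h and -8.52 ± 3.20 at 24 h, with all 8 accessions lower both times. The summed intensity of the 4 measured root markers ran from 264 to 529 before cold, from 279 to 456 at 6 h and from 179 to 345 at 24 h. That sum mostly follows LSI1, with a median of 219 over the 24 arrays. LSI2, IRT1 and PT11, at background, had medians of 16.9, 46.9 and 18.0. The sum of the 5 measured leaf markers had medians of 29960.2, 30416 and 30694 at the 3 times. The part of all these measures in the changes of RFS and P5CS1 was not tested. With quantile normalization the changes at 24 h versus before were 0.35 for RFS and 0.22 for P5CS1, and both passed.

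The intensity of each gene also differed between accessions. In comparisons of accessions, level means probe set intensity. Whether sequence differences between accessions under the probes contributed to these differences was not tested, so they need not be differences in RNA. In the test below an accession's arrays at the 3 times served as its replicates, as no time was repeated within an accession. A batch of plants, RNA or hybridisation shared by these arrays could therefore not be told apart from accession. For RFS the accession term had a moderated F of 8.91 (adjusted p = 0.000439, limma), and for P5CS1 28.8 (adjusted p = 3.75e-07), while 54.4% of all probe sets passed this test. Without the 2 arrays the F values were 14.2 and 36.4, and 61.0% of probe sets passed. Averaged over the 3 times, RFS was highest in Muguanuo (mean intensity 1715), Youmangzaogeng (1668) and IRAT109 (1685), which lay within 0.04 of each other on the log2 scale, less than the SE of a difference between accessions of 0.16. Geng87-304 followed at 1356, below these 3 by more than that SE, then MH63 at 1167 and Lixingeng at 1151, which were not apart. The accessions 9311 (1018) and ZS97 (989) were lowest and also not apart. The highest mean level of RFS was 1.71 times the lowest. In a fit of accession and time to the 22 other arrays MH63 came above Geng87-304 (log2 levels 10.45 and 10.42), and the order was otherwise the same. Lixingeng stood at 10.17 in that fit, below MH63 by more than the SE of 0.16 found with all arrays. These 2 accessions were thus close only where the 2 arrays that stood apart were included.

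P5CS1 stood in nearly the opposite order. ZS97 was highest at a mean intensity of 606, and its log2 level was 0.50 above that of MH63 (420), with an SE of a difference of 0.06. Lixingeng (397), 9311 (367) and IRAT109 (348) followed. Their log2 gaps to the neighbour above were 0.08, 0.10 and 0.08, more than that SE, though these gaps were not tested. For both genes the SE of a difference came from the gene's own spread and not from limma. The estimate of spread in limma was larger for P5CS1, and the gaps of 0.08 exceed 1 SE only on the smaller one. Geng87-304 (320) and Youmangzaogeng (309) were not apart, and Muguanuo (290) was lowest. The span from highest to lowest was 1.99-fold in P5CS1, wider than its change at any time, and the level in ZS97 was the highest of the 8 at each of the 3 times. Without ZS97 the accession term of P5CS1 had an F of 8.44 (adjusted p = 0.00143, limma), so the other 7 accessions differed as well. The fit to the 22 other arrays gave the same order of P5CS1 levels, but not the same gaps. Lixingeng (log2 level 8.69) was then above 9311 (8.64) by less than the SE of 0.06, and further below MH63 (8.88).

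**Figure D2:**
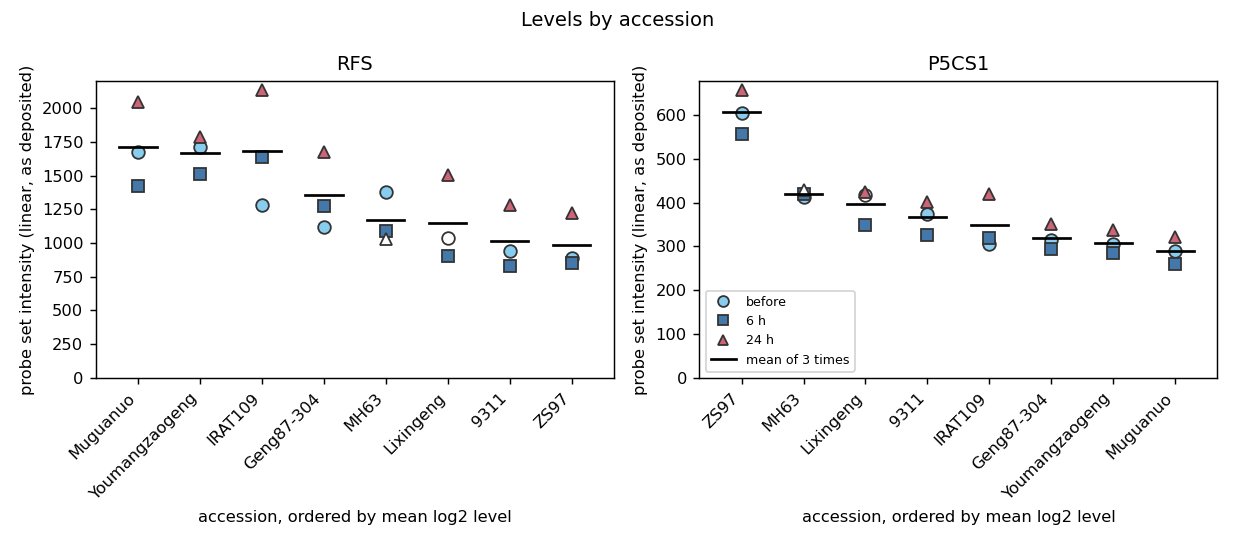
Intensity of RFS (left) and P5CS1 (right) by accession, ordered by mean log2 level, with circles for before cold, squares for 6 h, triangles for 24 h, open symbols for the 2 arrays that stood apart and bars for the mean of the 3 times. ZS97 is last for RFS at 989 and first for P5CS1 at 606.

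The other genes of these pathways were given by lists chosen by function, and 12 genes in all were measured, RFS and P5CS1 included. None of the 12 passed at 6 h with all arrays, where 9.76% of all probe sets did. At 24 h versus before cold 9 of 12 passed, 6 higher and 3 lower. From 6 h to 24 h 6 passed, 4 higher and 2 lower. Over all probe sets the shares that passed were 33.1% (13.3% higher, 19.8% lower) and 18.1% (7.95% higher, 10.1% lower). Calls were more common among brighter probe sets. A fit of only those above the median mean intensity, which included all 12 genes, held 15096 calls at 24 h versus before cold, against 18915 over all. From 6 h to 24 h it held 9521, against 10353. The filter dropped a far larger part of the probe sets than of the calls. The shares that passed in that fit were thus well above 33.1% and 18.1%. No test of the lists was made. Symbols for galactinol synthase, proline dehydrogenase and pyrroline-5-carboxylate reductase were not matched in the annotation, so those steps were not analysed here.

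Of the genes that feed raffinose synthesis, the supply of inositol and of UDP-galactose were both covered. RINO1 (LOC4331917) encodes the inositol phosphate synthase that makes the precursor of myo-inositol. Its intensity averaged 2682 ± 578 (SD, n = 8) before cold, then 2468 ± 558 at 6 h and 1811 ± 335 at 24 h. RINO1 fell by 0.55 ± 0.09 on the log2 scale at 24 h (SE; adjusted p = 6.18e-05, limma), lower in 8 of 8 accessions, and by 0.70 without the 2 arrays. Its fall was thus opposite in sign to the rise of RFS. At 6 h its change was -0.12 with all arrays (adjusted p = 0.487, limma). Without the 2 arrays RINO1 was lower in 7 of 7 accessions at 6 h, and the change of -0.19 passed (adjusted p = 0.0305, limma).

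UDP-glucose epimerases interconvert UDP-glucose and UDP-galactose, and the 4 measured genes differed. UGE1 (LOC4339812) had a mean of 432 ± 99.4 before cold, which was 464 ± 169 at 6 h and 666 ± 338 at 24 h. It rose 1.42-fold at 24 h (log2 change 0.50 ± 0.10, SE; adjusted p = 0.000823, limma), higher in 7 of 8 accessions, with MH63 the exception, and by 0.58 on the log2 scale without the 2 arrays. In IRAT109, the accession with the highest UGE1 at every time, it went from 656 to 855 and 1456. UGE3 (LOC4347638) fell by 0.24 ± 0.07 at 24 h (adjusted p = 0.0122, limma), from a mean of 334 to 275, in 7 of 8 accessions, and by 0.23 without the 2 arrays. That call was lost with quantile normalization (-0.15) and with equal 75th percentiles (-0.145). UGE2 and UGE4 had log2 changes of 0.01 and 0.11 at 24 h and did not pass (adjusted p = 0.924 and 0.344, limma). Over the 6 raffinose genes the median log2 change at 24 h was 0.06, against -0.01 over all probe sets, with 2 higher and 2 lower.

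Among proline genes the transporter had the largest change of the 12. PROT1 (LOC4333560), a proline transporter, read from 164 to 275 before cold, from 207 to 306 at 6 h and from 263 to 572 at 24 h. It rose 1.66-fold at 24 h (log2 change 0.73 ± 0.10, SE; adjusted p = 1.36e-05, limma) in 8 of 8 accessions, and 1.74-fold without the 2 arrays. In Muguanuo PROT1 went from 234 to 572, and in MH63 from 218 to 263. It was also the single gene of the 12 whose accession term did not pass (F = 1.97, adjusted p = 0.163, limma). OAT (LOC4333554), the ornithine aminotransferase that links ornithine to the same pathway, had changes of 0.11 at 6 h and -0.08 at 24 h and passed at neither (adjusted p = 0.644 and 0.662, limma).

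P5CS2 (LOC4324853), the other gene for the enzyme that P5CS1 encodes, read above the background on 0 of 24 arrays. Its brightest probe set lay between 29.7 and 83.4, and its 3 other probe sets were dimmer. A fitted log2 change of -0.24 at 24 h (adjusted p = 0.000846, limma) (-0.22 without the 2 arrays) thus describes readings at the level of the background, and it is 1 of the 3 lower calls counted above. Over the 4 proline genes the median log2 change at 24 h was 0.03, with 2 higher and 1 lower. Of the genes of glycine betaine synthesis, another osmolyte route, the betaine aldehyde dehydrogenase genes BADH1 and BADH2 rose 1.20-fold and 1.12-fold at 24 h (adjusted p = 0.00548 and 0.0177, limma), in 8 and 7 of 8 accessions. The rises were 1.22-fold and 1.16-fold without the 2 arrays. The call for BADH2 was lost without IRAT109 (0.15; adjusted p = 0.0565). At 6 h neither passed (changes of 0.16 and 0.06).

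**Figure D3:**
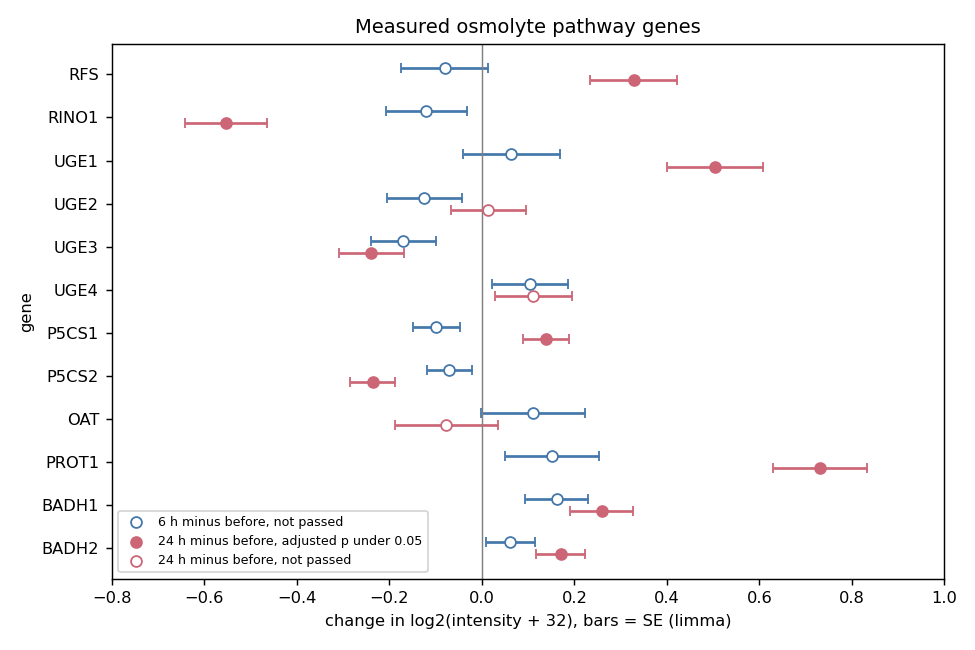
Change in log2(intensity + 32) with its SE (limma) for the 12 measured genes, at 6 h minus before (blue) and 24 h minus before (red), filled where the adjusted p was under 0.05. The values at 24 h run from -0.55 for RINO1 to 0.73 for PROT1, with RFS at 0.33 and P5CS1 at 0.14.

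The genes with the pattern most like each of the 2 were found by Pearson r of log2 values over the 24 arrays, among 1961 named genes brighter than the median probe set. The points share accessions and times, so r is a description. For RFS they were PP37 (r = 0.85), the fructokinase gene FKI (0.85), the galactolipid synthase gene MGD3 (0.82), the zinc finger gene DI19-4 (0.82) and OsUAM1 (0.81), a gene for a UDP-arabinopyranose mutase. Once each accession's mean was removed, r was 0.71, 0.72, 0.82, 0.62 and 0.69. MGD3 was thus about as close to RFS within accessions as over all arrays. Its level at 24 h was 1.78 times that before cold, or 1.92 times without the 2 arrays, given with no test because the gene was chosen for its likeness to RFS on these arrays.

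For P5CS1 the closest genes were ARD1 (r = 0.87), an acireductone dioxygenase gene, IVD (0.84), EX2 (0.82), NOL (0.81), a gene for a chlorophyll b reductase, and ISP (0.78). With accession means removed, r was 0.26, 0.48, 0.74, 0.35 and 0.51, lower for each, and EX2 kept the highest. The level of EX2, chosen in the same way, was 1.25 times as high at 24 h as before cold. Its log2 change of 0.32 ran from 0.07 to 0.43 over 12 alternatives of processing, so its size rested on the processing. Without the 2 arrays that stood apart, r over 22 arrays was 0.82 to 0.85 for the 5 genes like RFS and 0.78 to 0.87 for those like P5CS1.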

How the data were processed

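The authors deposited 1 table of probe set intensity on a linear scale for 24 arrays. The sources used here do not give their software, summarisation or scaling. RNA was extracted with TRIzol and labelled as biotinylated cRNA, per the labels' protocols. Of 57381 rows, 187 control and reporter probe sets were left out, so 57194 were tested. Values were taken as log2(value + 32), without further normalization, and folds are on this scale, which understates changes of dim genes. All 22436 probe sets with 1 gene matched the RefSeq table (assembly ASM3414082v1, used for names), and 95 with several genes were not named. A gene was represented by its brightest probe set, with _x_at and _s_at set aside where it had another.

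The fit was limma 3.58.1 (R 4.3.3; lmFit, eBayes with trend) with time point and accession, tested on simulated data. Each accession has all 3 times in the labels, so it entered as a block. Deviations from time point means correlated at 0.248 to 0.886 within accessions over 24 pairs. Summaries used Python 3.11.15, numpy 2.4.6, pandas 2.3.3 and scipy 1.17.1. The alternatives were other offsets, normalizations, a filter, no block, array weights, no trend, averaged probe sets, leaving out the 2 arrays or each accession, and a sign-flip test. Accession levels from the 22 other arrays were added after seeing the data. Named genes were RFS, P5CS1, every measured list gene and the 5 genes most like each. The members and lists were chosen with earlier results of these data known. Some list symbols matched unrelated genes and were dropped.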

Additional observations from a re-analysis of the deposited data

Results flagged for a closer look

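In groups of 8 arrays a value was picked out where its gap to the nearest other value, divided by the range of the group on the log2 scale, was above 0.526 (Dixon's criterion). Of 42 groups tested 10 had such a value, and chance picks about 1 in 20. For P5CS1 it picked the intensity of ZS97 at 24 h (657), the log2 change of IRAT109 at 24 h minus before (0.41) and that of MH63 at 24 h minus 6 h (0.026), which rests on an array that stood apart. No RFS value was picked. For UGE1 it picked IRAT109 before cold (656), at 6 h (855) and at 24 h (1456). The others were UGE4 in 9311 at 24 h (113.5), P5CS2 in MH63 at 6 h (83.4, a reading at background), PROT1 in Geng87-304 before cold (164) and BADH1 in 9311 at 6 h (391).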

How the results depend on the processing

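Directions of the changes of RFS and P5CS1 were the same under every alternative run. Without the replicate block, that is without the accession, 4 calls were lost: RFS at 24 h versus before (0.33) and versus 6 h (0.41), and P5CS1 at 24 h versus before (0.14) and versus 6 h (0.24), with adjusted p of 0.219 to 0.651 (limma). Of the raffinose genes 1 then passed at 24 h versus before and 0 versus 6 h, of the proline genes 1 and 1, and of the other osmolyte genes 0 at 24 h versus before. Over all probe sets the counts without the block were 1529, 9985 and 3255, against 5580, 18915 and 10353 with it (6 h and 24 h versus before, then 24 h versus 6 h). The P5CS1 change at 6 h (-0.10) passed in the exact sign-flip test on the values as deposited, and was -0.030 with quantile normalization. At 6 h 1 raffinose gene passed without the 2 arrays that stood apart, and 1 other osmolyte gene passed with quantile normalization, equal 75th percentiles and array weights. Leaving out 1 accession gave 0.10 to 0.16 for P5CS1 at 24 h versus before, 0.27 to 0.43 for RFS, and 1 to 2 other osmolyte genes at 24 h. Signs turned for values near 0 that passed nowhere: UGE2 at 24 h versus before (-0.05 to 0.067 leaving out 1 accession), UGE4 at 24 h versus 6 h (-0.020 with array weights, -0.013 without the 2 arrays, -0.026 to 0.033 leaving out 1 accession) and OAT at 24 h versus before (0.016 with quantile normalization, 0.019 with equal 75th percentiles).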

Other observations

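Across the 8 accessions the mean log2 levels of RFS and P5CS1 over the 3 times ran opposite, with Pearson r = -0.77 (exact permutation p = 0.0107, adjusted over 3 relations 0.032) and Spearman rho = -0.88 (exact p = 0.00724, adjusted 0.0217; n = 8). Without Youmangzaogeng and Muguanuo, which were farthest from the median of RFS, r was -0.64 over 6 accessions, and without ZS97 it was -0.77 over 7. With levels from a fit of accession and time to the 22 arrays without the pair that stood apart, r was -0.70 (exact permutation p = 0.0505, n = 8) and rho -0.79 (exact p = 0.0279), both unadjusted, so Pearson's r no longer passed. At 6 h alone, a time with neither array that stood apart, r was -0.64 (exact p = 0.087, adjusted 0.115) and rho -0.67 (exact p = 0.0831, adjusted 0.125). Both genes were read from the same arrays, and the relation was looked for after the values were seen. The permutations treat the 8 accessions as unrelated. Kinship among them, sequence differences under the probes and batches shared by the arrays of an accession were not taken into account. The changes from 6 h to 24 h of the 2 genes gave r = 0.72 (exact p = 0.115, adjusted 0.115) and rho = 0.45 (exact p = 0.268, adjusted 0.268), and r was 0.13 without Lixingeng and MH63.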
